A study of Mus musculus with 6 samples.

Results

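CD8 T cells that were dividing inside mouse melanomas were picked out cell by cell from single-cell RNA counts. A member had at least 1 unique molecular identifier (UMI, 1 tagged RNA molecule) of the CD3 genes Cd3d, Cd3e and Cd3g together and at least 1 of Cd8a and Cd8b1 together. It had none of Foxp3, Ncr1, Siglech, C1qa, C1qb and C1qc, the genes that mark regulatory T cells, NK cells, plasmacytoid dendritic cells and macrophages. It also had at least 2 UMIs of the proliferation genes Mki67 and Top2a together. This found 746 members among 52390 kept cells, 1.42%. The same gate without a Mki67 or Top2a UMI held 1312 cells, called non-dividing here, and 449 cells with exactly 1 such UMI lay between them.

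The tumours grew from YUMMER1.7, a mouse melanoma line of which 600000 cells were injected into male C57Bl/6 mice aged 6 to 8 weeks. Exercise mice ran on a treadmill at 12 m per minute for 45 minutes a day over 14 days, and sedentary mice did not run. Libraries exercise 5, 6 and 8 and sedentary 1, 2 and 3 each hold whole dissociated tumour tissue with no sorting. All 6 libraries share the same injected line and the same strain, sex and age range. The labels do not say whether a library is 1 mouse or a pool, so p-values measure the spread between these libraries, and 3 against 3 libraries cannot give an exact permutation p below 0.1.

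Killer T cells that carry CD8 recognise peptides on target cells through the T cell receptor, divide after activation and kill with granzymes and perforin. A dividing cell copies its DNA in S phase and separates the copies in mitosis after G2, and both stages have their own sets of transcripts. In tumours, CD8 T cells under lasting stimulation carry inhibitory receptors such as PD-1, and a smaller set of less differentiated cells with Tcf7 and Il7r can renew the pool.

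The libraries held 97426009 to 131778565 UMIs, and kept cells had a median of 5967 to 12513.5 UMIs per library. No barcode sequence occurred in members of more than 1 library (0 of 746), against 309 of 52078 among all kept cells. Members were deeper than non-dividing cells in all 6 libraries, with median UMIs of 5047.5 to 7096.5 against 1621.5 to 2860.5. Mitochondrial shares overlapped, with medians of 3.11% to 4.20% against 3.11% to 3.8%. At a fixed threshold of 2 UMIs a deeper cell is more likely to pass, so results that depend on depth are also given at a fixed depth.

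The members carried the transcripts of CD8 T cells beyond those the gate required. Trac, the T cell receptor alpha constant gene, which the gate did not use, had a UMI in 83.0% of members. Cd8a was seen in 86.6%, Cd8b1 in 89.9%, Mki67 in 86.9% and Top2a in 92.9%, values the gate itself shaped. The B cell genes Cd79a and Ms4a1 were at 0 in the members. Of other immune cells, the summed 6 NK genes had 96.0 to 150.1 counts per 1000000 UMIs (CPM). The 11 macrophage and monocyte genes had 27.7 to 110.1 CPM and the 8 dendritic cell genes 20.8 to 195.0 CPM. Klra4, of the NK list, had 69.6 CPM in members and 160.7 CPM in the tumour-like cells described below. The gamma delta T cell gene Tcrg-C2 had a UMI in 17.8% of members.

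Some members also carried transcripts of the non-immune cells of the tumour. Of the 746, 122 (16.4%) had a Cd4 UMI or at least 3 UMIs together of Cspg4, Cdh2, Nes and Sparc, genes expressed by tumour-like cells, and 116 of these met the second condition. These 122 cells had a median of 24778 UMIs, against 5476.5 in the other 624, and they held 47.2% of all UMIs of the members, 28.5% to 59.5% by library. Among non-dividing cells 50 of 1312 (3.81%) met the same conditions and held 17.1% of the UMIs. Scrublet, a doublet caller, marked 56 of the 746 members, 48 of them among the 122, and 984 of the 52390 kept cells (1.88%), so it left most of these cells unmarked. The summed 8 tumour-like genes stood at 416.8 to 739.8 CPM in all members, at 40.4 to 84.1 CPM in the 624 and at 1104 to 1442 CPM in 16014 tumour-like cells with no Ptprc or CD3 UMI. The summed 5 fibroblast genes stood at 360.9 to 699.9 CPM in all members and 38.4 to 91.4 CPM in the 624. In the tumour-like cells they had 1066 to 1387 CPM. Tumour-like cells also carried proliferation transcripts, with 503.0 to 684.5 CPM of Mki67 and Top2a together. The conditions were chosen after the values were seen. The 624 members and 1262 non-dividing cells without these genes are called the restricted cells, and comparisons are given for them and for all cells.

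Exercise tumours did not differ from sedentary tumours in the number of dividing CD8 T cells beyond the spread between libraries. Exercise 5, 6 and 8 held 198, 118 and 148 members, and sedentary 1, 2 and 3 held 114, 114 and 54. As a share of kept cells this was 2.42%, 1.24% and 1.47% in exercise libraries against 1.44%, 1.58% and 0.567% in sedentary libraries. Exercise 5 was the highest and sedentary 3 the lowest, and the other libraries overlapped. The means were 1.71 ± 0.625% in exercise and 1.20 ± 0.549% in sedentary tumours (SD, n = 3 each; two-sided exact permutation test, p = 0.5). The difference was 0.51 percentage points, 0.47 with the restricted members, 0.16 without exercise 5 and 0.20 without sedentary 3.

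Among cells of the CD8 gate the dividing share had a higher mean in exercise than in sedentary tumours once every cell was thinned to 3000 UMIs, but the groups overlapped. Thinning draws 3000 UMIs at random from each cell and leaves out shallower ones, here 513, 158 and 162 exercise and 146, 191 and 84 sedentary gate cells. Of the cells left, 129 of 325, 81 of 162 and 110 of 212 divided in exercise 5, 6 and 8. In sedentary 1, 2 and 3, 75 of 237, 66 of 235 and 33 of 82 divided. These are 39.7%, 50% and 51.9% in exercise against 31.6%, 28.1% and 40.2% in sedentary libraries. Exact 95% binomial intervals, which cover counting error only, ran from 34.3% to 45.2% in exercise 5 and from 29.6% to 51.7% in sedentary 3. The interval of sedentary 3 overlapped those of all 3 exercise libraries, and that of exercise 5 also overlapped that of sedentary 1. The means were 47.2 ± 6.56% and 33.3 ± 6.25%, a difference of 13.9 percentage points (exact permutation test, p = 0.2), and 16.7 in the restricted cells (exact permutation test, p = 0.2). At 1500 and at 6000 UMIs the difference was 5.35 and 2.40 percentage points. Without thinning the shares were 23.6%, 36.9% and 39.6% in exercise against 29.8%, 26.8% and 32.5% in sedentary libraries, with means of 33.4 ± 8.53% and 29.7 ± 2.89% (exact permutation test, p = 0.5). Exercise 5 moved most between both scales, and its kept cells had the lowest median depth of the 6 libraries.

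**Figure D1:**
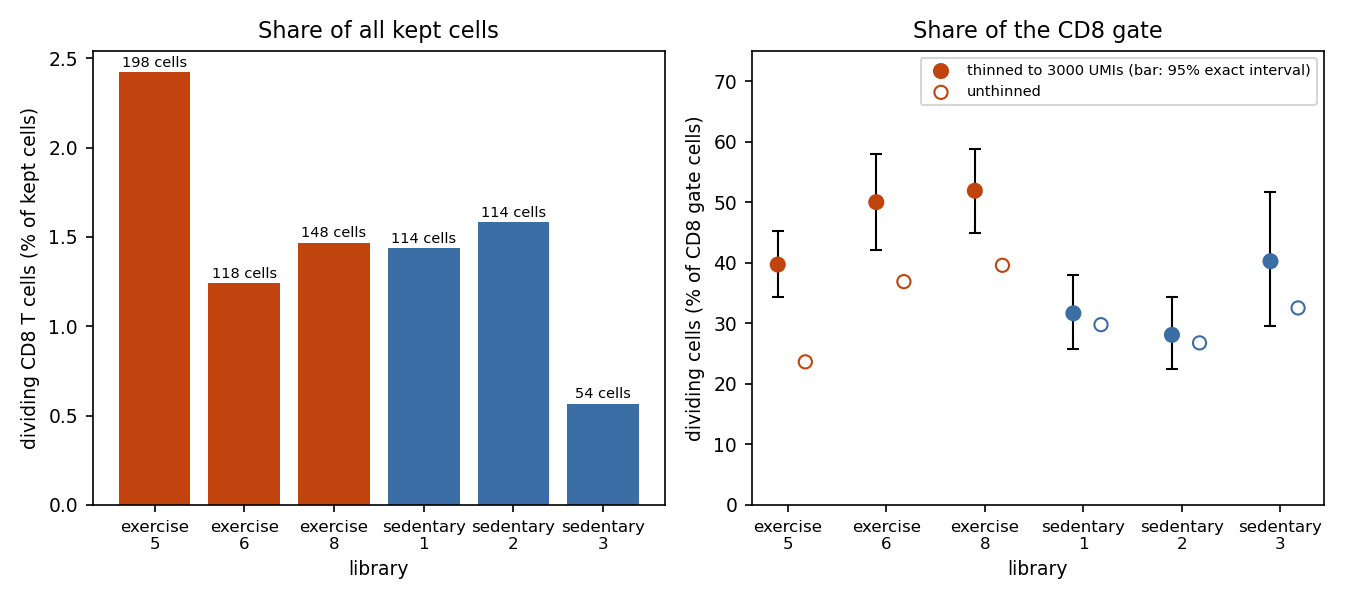
The left panel plots members as a percentage of kept cells in each library, with the number of members above each bar, and the right panel the dividing percentage of CD8 gate cells, thinned to 3000 UMIs (filled, with 95% exact binomial intervals) and unthinned (open). After thinning, exercise 6 and 8 stand at 50% and 51.9%, above all sedentary libraries, while exercise 5 at 39.7% lies just under sedentary 3 at 40.2%.

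The dividing share of CD8 T cells was set beside those of NK cells and regulatory T cells of the same libraries, and neither difference passed after adjustment. At 3000 UMIs 40.3 ± 9.52% of CD8 gate cells divided, against 22.3 ± 9.30% of cells gated as NK (SD, n = 6 libraries). The CD8 share was higher in 6 of 6 libraries, by 17.9 percentage points (two-sided exact sign-flip permutation test, p = 0.031, the smallest that 6 libraries can give; 0.0625 adjusted over the 2 comparisons), and by 19.1 points without cells with at least 3 UMIs of the tumour-like genes. Cells gated by Foxp3, the master regulator of regulatory T cells, divided at 40.8 ± 11.7%, and the CD8 share was higher in 2 of 6 libraries (difference -0.50 percentage points; exact sign-flip permutation test, p = 0.84375), and -1.17 points without cells with tumour-like genes. Each library gave 9 to 42 regulatory T cells of that depth.

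The level of cell cycle transcripts followed the number of Mki67 and Top2a UMIs, the 2 genes that chose the members. Lists of 37 S phase genes and 40 G2 and M phase genes served as the measure, and their levels are a description with no test. In the restricted cells the S phase list took 41.0 ± 1.28 UMIs per 10000 and the G2 and M phase list 57.5 ± 7.04 (SD over 6 libraries), against 12.9 and 6.88 in non-dividing cells. Just inside the threshold, 116 cells with 2 UMIs had 31.8 ± 7.72 and 14.9 ± 3.96 per 10000, and just outside it 416 cells with 1 UMI had 19.5 ± 4.62 and 9.02 ± 1.41. With 3 to 5 UMIs (145 cells) the values were 40.04 and 36.5, and with 6 or more (363 cells) 43.2 and 70.6. The S phase list differed little beyond 3 UMIs, while the G2 and M phase list went on climbing. The cells just outside the threshold lay above the non-dividing ones on both lists.

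The dividing cells spanned both stages. Among 519 restricted members with at least 3000 UMIs the S phase list had a median of 39.8 UMIs per 10000 (10th to 90th percentile 12.0 to 71.1) and the G2 and M phase list 49.8 (6.69 to 110). Across these cells, which share libraries and are not independent, Spearman's rho between the lists was -0.23, and -0.48 to 0.07 within libraries. Both lists varied widely from cell to cell. Exercise and sedentary members did not differ beyond the spread, with 31.9 ± 3.07 and 30.6 ± 2.89 S phase UMIs per 10000 (p = 0.5) and 48.3 ± 9.49 and 45.8 ± 5.27 G2 and M phase UMIs per 10000 (p = 0.7; exact permutation tests, n = 3 each, all members). In the restricted cells the exact permutation p was 0.9 for the S phase list and 1 for the G2 and M phase list.

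**Figure D2:**
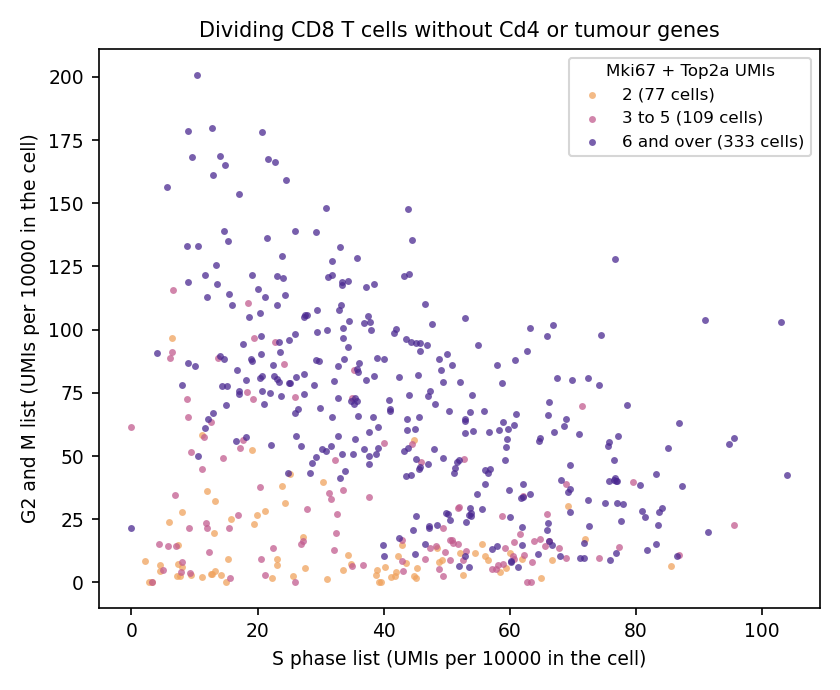
Each point is 1 restricted member with at least 3000 UMIs, with its S phase list UMIs per 10000 on the x axis and its G2 and M phase list UMIs per 10000 on the y axis, coloured by its Mki67 and Top2a UMIs. Cells with 2 UMIs (77 cells) lie mostly low on the y axis across a wide range of the x axis, and cells with 6 or more (333 cells) fill the upper part.

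The promoters of both gene sets are shown because these lists served as the measure of S phase and of G2 and M phase. Genes of G2 and M phase are known to be held down in resting cells through the cell cycle homology region, TTTGAA or TTCGAA near the start site, often with CCAAT boxes, and many S phase genes carry E2F sites such as GGCGGGAA. Promoters from 250 bases before to 50 after each start were taken from RefSeq on the build GRCm38.p6 and searched on both strands. Of the lists, 34 of 40 G2 and M phase genes matched 37 promoters and 30 of 37 S phase genes matched 35. TTTGAA or TTCGAA stood in 28 of the 37 G2 and M phase promoters (75.7%) and 4 of the 35 S phase promoters (11.4%), against 19.2% of all 32851 promoters. CCAAT stood in 78.4% and 60.0%, against 37.4% of all, and GGCGGGAA in 0 of the 37 and 7 of the 35, against 2.19% of all. A match describes the letters only.

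The following 150 bases, from 130 before to 20 after the start and in the gene's direction, belong to genes of high level in the restricted members, 4 of G2 and M phase with TTTGAA and CCAAT and 3 of S phase with the E2F site. Capitals mark CCAAT or TTTGAA or GGCGGGAA in either direction, which on the other strand read ATTGG or TTCAAA or TTCCCGCC. In Uhrf1 a pair of CCAAT matches on opposite strands overlaps. Cenpf, a kinetochore protein (chr1:189688067-189688216, minus strand), Ube2c, which marks mitotic cyclins for breakdown (chr2:164769799-164769948, plus strand), Cdca8, of the chromosomal passenger complex (chr4:124936898-124937047, minus strand), and Prc1, which bundles the midzone of the spindle (chr7:80294321-80294470, plus strand), are of the first kind. Rrm1, the large subunit of ribonucleotide reductase (chr7:102441565-102441714, plus strand), Rfc4, of the clamp loader (chr16:23127711-23127860, minus strand), and Uhrf1, which keeps DNA methylation through replication (chr17:56303207-56303356, plus strand), are of the second.
Cenpf: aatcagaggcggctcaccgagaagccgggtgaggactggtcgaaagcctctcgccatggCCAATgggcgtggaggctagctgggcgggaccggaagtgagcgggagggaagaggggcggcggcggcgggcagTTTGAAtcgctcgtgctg
Ube2c: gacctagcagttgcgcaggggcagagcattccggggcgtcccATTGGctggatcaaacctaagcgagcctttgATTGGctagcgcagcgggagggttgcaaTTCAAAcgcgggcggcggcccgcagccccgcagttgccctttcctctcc
Cdca8: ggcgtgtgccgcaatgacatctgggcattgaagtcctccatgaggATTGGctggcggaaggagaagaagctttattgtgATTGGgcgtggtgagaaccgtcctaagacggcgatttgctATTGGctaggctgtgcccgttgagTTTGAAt
Prc1: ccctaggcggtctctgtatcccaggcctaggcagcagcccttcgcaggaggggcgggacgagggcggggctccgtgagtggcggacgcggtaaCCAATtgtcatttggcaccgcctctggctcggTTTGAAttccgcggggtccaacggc
Rrm1: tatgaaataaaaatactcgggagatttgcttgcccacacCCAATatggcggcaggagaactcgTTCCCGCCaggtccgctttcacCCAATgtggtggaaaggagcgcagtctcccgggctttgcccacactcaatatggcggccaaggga
Rfc4: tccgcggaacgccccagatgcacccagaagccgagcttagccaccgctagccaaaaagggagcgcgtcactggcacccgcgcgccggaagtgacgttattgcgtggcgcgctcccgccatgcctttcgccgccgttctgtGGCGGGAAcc
Uhrf1: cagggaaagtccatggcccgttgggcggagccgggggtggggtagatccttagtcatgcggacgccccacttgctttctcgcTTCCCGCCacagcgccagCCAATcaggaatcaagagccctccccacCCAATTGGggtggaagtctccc
The first 4 hold TTTGAA close to the start with a CCAAT box before it, and the other 3 hold GGCGGGAA.

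The comparison of dividing with non-dividing CD8 T cells of the same library asks what else dividing cells expressed. UMIs were summed per library and state, the 13 genes of the gate were left out, and S phase, G2 and M phase, cyclin and histone lists are described with no test. By edgeR's quasi-likelihood test with the library as a block and Benjamini-Hochberg adjustment, 2059 of 5813 genes passed 0.05 in the restricted cells (35.4%), 968 higher (16.7%) and 1091 lower (18.8%) in dividing cells. With all cells 2459 of 7551 passed (32.6%), 1122 higher (14.9%) and 1337 lower (17.7%). Of the higher calls 658 were shared (58.6% of those from all cells and 68.0% of the restricted ones), of the lower calls 804 (60.1% and 73.7%), and 44 genes were called in opposite directions. The median log2 fold change over all genes was -0.04 in the restricted cells, and list medians are read against it. Counts over a list cover the genes that passed edgeR's filter on low counts, which a gene can pass through the state where it is high. Restricted cells of 3000 to 15000 UMIs narrowed the gap in depth without closing it, to library medians of 5097 to 6730 UMIs in dividing and 3464 to 4018 in non-dividing cells. They gave 878 calls among 4506 genes, 416 higher and 462 lower. This set held fewer cells, with 24 non-dividing cells in sedentary 3 and 25 in exercise 6. A call lost there cannot be read as a lost difference.

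CPM is a share of a cell's UMIs, and dividing cells held more UMIs. A gene lower in CPM could therefore still have more UMIs per dividing cell. In the restricted cells this was so for 14 of the 15 cytotoxic genes with a negative log2 fold change, 11 of 11 inhibitory receptor and exhaustion genes, 16 of 16 T cell receptor signalling genes, 15 of 19 interferon genes and 5 of 10 naive and memory genes. Depth and RNA content cannot be told apart in these counts. Fold changes below are on the CPM scale and log2, dividing over non-dividing.

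Beyond the lists, the genes higher in dividing cells with the smallest p were those of DNA replication and the spindle. Pclaf, a partner of the replication clamp, had 692, 763 and 779 CPM in dividing cells of exercise 5, 6 and 8 and 713, 715 and 677 CPM in those of sedentary 1, 2 and 3, against 48.5, 32.7, 91.0, 27.5, 31.3 and 39.0 CPM in non-dividing cells of the same libraries. The lowest dividing value lay far above the highest non-dividing one, and the log2 fold change was 3.98 (SE 0.12, edgeR adjusted p = 1.4e-27). Stmn1, which destabilises microtubules, had 890 ± 43.0 against 136 ± 51.6 CPM (SD, n = 6; log2 2.73). The tubulins Tuba1b, Tubb5 and Tubb4b had log2 fold changes of 2.40, 2.12 and 2.54, and Knl1, a kinetochore scaffold, 4.25. These genes are known to rise with division, as are Aspm (4.29) and the histones, whose 21 genes had a median of 2.74. The states were split on Mki67 and Top2a, so a difference in such genes is tied to the gate. Their p-values are therefore no separate support, and the counts of passing genes include those outside the lists.

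**Figure D3:**
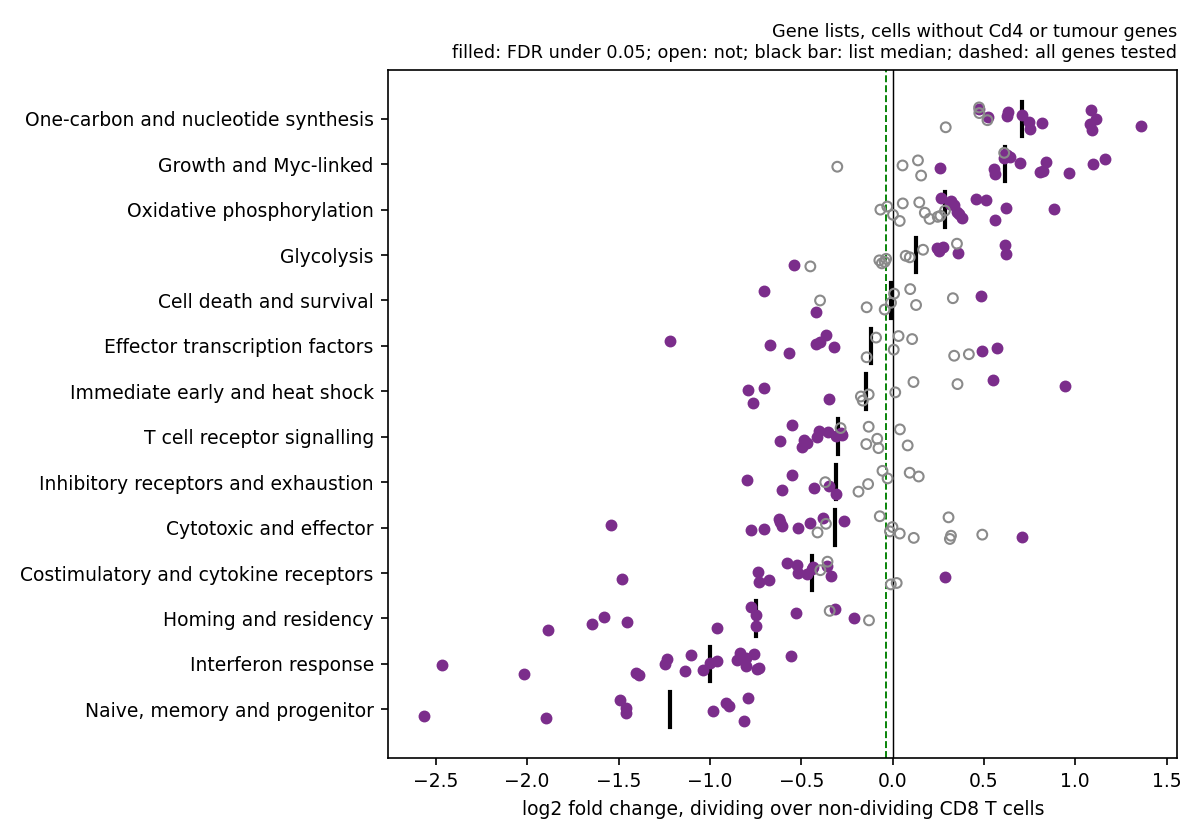
Each point is a gene of the list named on the y axis, with its log2 fold change of dividing over non-dividing CD8 T cells on the x axis in the restricted cells. Filled points passed an edgeR adjusted p of 0.05, black bars are list medians, and the dashed line is the median of all genes tested, so that the biosynthetic lists lie to its right and the interferon and naive and memory lists to its left.

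Genes that build nucleotides and serine rose in dividing cells. Of 17 one-carbon and nucleotide synthesis genes tested, 13 were higher and 0 lower in the restricted cells (median 0.71), 14 of 18 with all cells, 8 of 17 by DESeq2 in the restricted cells, and 7 of 17 at 3000 to 15000 UMIs (median 0.45). Phgdh, the first enzyme of serine synthesis, had 175, 143 and 236 CPM in dividing exercise cells and 194, 172 and 174 CPM in dividing sedentary cells, against 93.2, 77.6, 108, 73.8, 84.4 and 39.0 CPM in non-dividing cells. Its groups did not overlap (log2 1.09, SE 0.12, edgeR adjusted p = 6.4e-10), and it kept 0.82 at 3000 to 15000 UMIs. Shmt2, the mitochondrial enzyme that takes 1 carbon from serine, rose by 1.36, Impdh2, which commits to guanine nucleotides, by 1.09, and Psat1, the next step of serine synthesis, by 0.75.

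Growth genes rose as well, while Myc itself was low and did not pass. Of 19 growth and Myc-linked genes 14 were higher and 0 lower (median 0.62), 14 with all cells and 9 of 17 at 3000 to 15000 UMIs (median 0.31). Ran, which drives nuclear transport and spindle assembly, stood at 841 ± 51.8 CPM in dividing and 369 ± 67.7 CPM in non-dividing cells (log2 1.16). Ncl, a nucleolar protein of ribosome making, had 1381 ± 104 against 691 ± 126 CPM (0.96), Hspd1, a mitochondrial chaperone, 381 ± 50.7 against 212 ± 54.6 CPM (0.84), and Npm1, another nucleolar protein, 1618 ± 176 against 1074 ± 105 CPM (0.56). Myc had 19.7 ± 9.44 against 18.8 ± 9.88 CPM, a log2 fold change of 0.16 (edgeR adjusted p = 0.69).

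Genes of respiration and glycolysis moved less. Of 23 genes of oxidative phosphorylation 12 were higher in the restricted cells (median 0.29), 7 with all cells, and 3 at 3000 to 15000 UMIs (median 0.05). Cycs, the electron carrier cytochrome c, had a log2 fold change of 0.88 and Atp5b, of the ATP synthase, 0.51. Among 16 glycolysis genes 6 were higher and 1 lower (median 0.13), with Ldha, which makes lactate, at 944 ± 82.4 against 604 ± 124 CPM (0.62) and Tpi1 at 0.62. The glucose transporter gene Slc2a3 fell by 0.54, with 52.6 ± 17.5 against 75.2 ± 16.5 CPM (edgeR adjusted p = 0.0054, 0.069 without exercise 5, 0.15 at 3000 to 15000 UMIs and, by DESeq2, 0.085). At 3000 to 15000 UMIs 2 of 14 glycolysis genes were higher and 0 lower (median -0.01). Of the 12 immediate early and heat shock genes, which digestion of tissue can raise, 2 were higher, Hsp90aa1 (0.94) and Hspa8 (0.55), and 4 lower, among them Dusp2 (-0.70).

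The killing genes did not move as a block. In the restricted cells 10 of 22 cytotoxic and effector genes were lower and 1 higher (median -0.32), with all cells 16 lower and 0 higher (median -0.87), and at 3000 to 15000 UMIs 8 lower and 2 higher (median -0.22). Gzmb, the granzyme best known from killer cells, had 519, 582 and 504 CPM in dividing exercise cells and 684, 1336 and 542 CPM in dividing sedentary cells. Non-dividing cells had 531, 519 and 753 CPM in exercise and 414, 858 and 652 CPM in sedentary libraries. The groups overlapped, and Gzmb was higher in dividing cells of 3 of 6 libraries (log2 0.12, SE 0.10, edgeR adjusted p = 0.38), while the sums of all cells gave -0.48 (edgeR adjusted p = 0.008). Prf1, the pore-forming perforin, had 351 ± 129 against 364 ± 81.6 CPM (log2 -0.01, edgeR adjusted p = 0.94).

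Of the 10 cytotoxic and effector genes that fell, Ccl5 had the lowest log2 fold change. Ccl5, a chemokine of effector T cells, had 1736, 1131 and 945 CPM in dividing exercise cells and 1157, 1486 and 1558 CPM in dividing sedentary cells. In non-dividing cells it had 6769, 2578 and 2728 CPM in exercise and 3043, 4729 and 3418 CPM in sedentary libraries. It was lower in dividing cells of 6 of 6 libraries (log2 -1.54, SE 0.07, edgeR adjusted p = 2.6e-21), at -1.20 in cells of 3000 to 15000 UMIs, and also per cell, with 7.95 against 11.3 UMIs. Ifng, the gene of interferon gamma, had 159 ± 44.8 against 283 ± 127 CPM (-0.77). Nkg7, a protein of cytotoxic granules, had 1546 ± 126 against 2150 ± 157 CPM (-0.52), and Klrd1, the CD94 receptor gene, 577 ± 93.7 against 869 ± 90.0 CPM (-0.62).

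Gzmc was the cytotoxic gene that passed in the other direction, with a wide spread between libraries. It had 15.4, 162 and 114 CPM in dividing exercise cells and 292, 531 and 131 CPM in dividing sedentary cells, against 10.3, 163, 168, 97.8, 141 and 256 CPM in non-dividing cells. It was higher in dividing cells of 3 of 6 libraries (log2 0.71, SE 0.20, edgeR adjusted p = 0.0051), most in sedentary 1 and 2. Without sedentary 1 the edgeR adjusted p was 0.14 and without sedentary 2 it was 0.46, by DESeq2 it was 0.62, and with all cells the log2 fold change was -0.10. Gzma had 0.31 (edgeR adjusted p = 0.32) and passed at 3000 to 15000 UMIs with 0.92 (edgeR adjusted p = 0.00036). Granzyme genes c to f are close copies of each other, so counts of single members can be split or lost.

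Some inhibitory receptors were a smaller share of the RNA of dividing cells, and how many depended on the cells and the test. Of 13 genes of inhibitory receptors and exhaustion 6 were lower and 0 higher in the restricted cells (median -0.31), 12 of 14 with all cells (median -0.87) and 3 of 12 at 3000 to 15000 UMIs (median -0.28). By DESeq2 1 of the 13 was lower in the restricted cells (median -0.33). Pdcd1, the gene of PD-1, had 260, 183 and 215 CPM in dividing exercise cells and 222, 169 and 184 CPM in dividing sedentary cells, against 251, 257, 290, 275, 202 and 290 CPM in non-dividing cells. The groups overlapped, and exercise 5 went the other way (log2 -0.31, SE 0.09, edgeR adjusted p = 0.0083), and at 3000 to 15000 UMIs the gene no longer passed (-0.29, edgeR adjusted p = 0.064), nor by DESeq2 (adjusted p = 0.058). Lag3, an inhibitory receptor that binds MHC class II, fell by 0.60 (188 ± 33.7 against 268 ± 48.0 CPM) and kept -0.54 at 3000 to 15000 UMIs. Havcr2, the gene of TIM-3, had -0.19 (edgeR adjusted p = 0.22), and Tox, a transcription factor of exhausted cells, had -0.03 (edgeR adjusted p = 0.86).

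Il7r, Bcl2, Klf2, Ly6c2 and Slamf6, genes of naive, memory and progenitor cells, fell in dividing cells. Of 20 genes on this list 10 passed the filter on low counts in the restricted cells, 10 of them called lower, and 10 were not tested. Since genes low in dividing cells, such as Klf2, reached the filter through non-dividing cells, where they were higher, that count describes the genes tested only. The fold change of Klf2 itself carries the same limit. With all cells 11 of 15 were lower, and 5 of 5 at 3000 to 15000 UMIs, where Klf2 and Slamf6 were not tested. Il7r, the interleukin 7 receptor that keeps resting T cells alive, had 46.1, 42.0 and 32.9 CPM in dividing exercise cells and 32.8, 109 and 38.7 CPM in dividing sedentary cells, against 217, 131, 119, 142, 270 and 212 CPM in non-dividing cells. All dividing values lay below all non-dividing ones (log2 -1.90, SE 0.14, edgeR adjusted p = 2.8e-15), and cells of 3000 to 15000 UMIs gave -1.42. Bcl2, which protects from cell death, had 81.8 ± 16.9 against 227 ± 53.4 CPM (-1.46), Klf2, a factor of quiescence and recirculation, 7.46 ± 5.12 against 50.8 ± 19.3 CPM (-2.56), Ly6c2, a surface marker of memory CD8 T cells in mice, -1.49, and Slamf6, a marker of progenitor cells, -1.46. Tcf7, the gene of the progenitor factor TCF-1, was too low to be tested in the restricted cells and had 7.55 ± 3.70 against 30.3 ± 9.85 CPM.

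**Figure D4:**
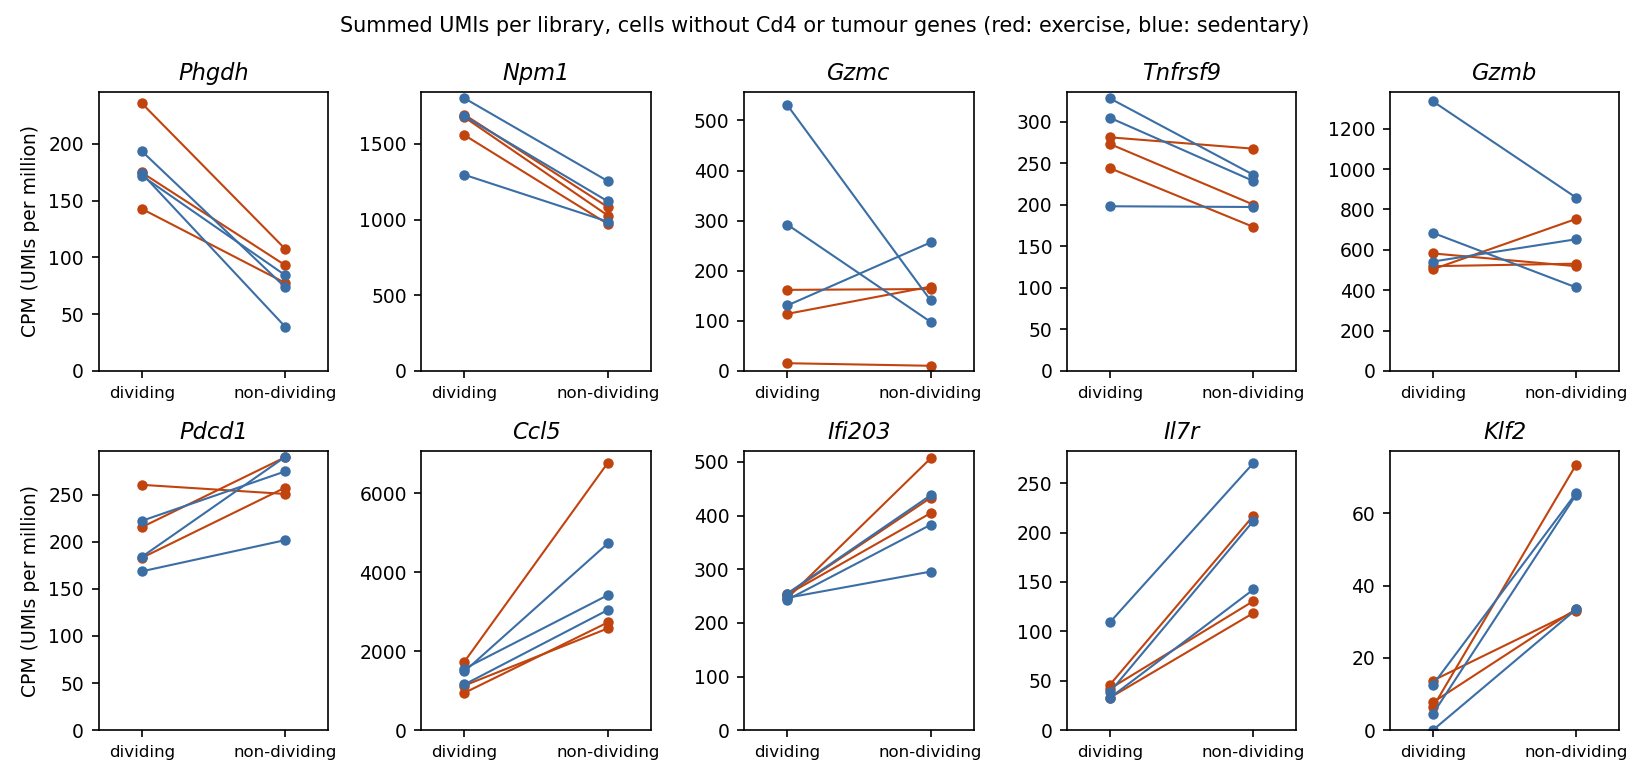
Each line joins the CPM of dividing (left) and non-dividing (right) restricted CD8 T cells of 1 library, for 10 genes, with exercise libraries in red and sedentary libraries in blue. Phgdh and Npm1 were higher in dividing cells of all 6 libraries, Ccl5, Ifi203, Il7r and Klf2 lower in all 6, and Gzmb and Gzmc went both ways.

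Many receptor, signalling and homing genes were lower, fewer of them at 3000 to 15000 UMIs. Among 17 costimulatory and cytokine receptor genes 12 were lower and 1 higher (median -0.44), with Icos at 41.3 ± 9.82 against 110 ± 34.9 CPM (-1.48), Cd28 at -0.67 and Il2rg, the shared cytokine receptor chain, at -0.73. At 3000 to 15000 UMIs 5 of 15 were lower and 0 higher. Tnfrsf9, the gene of 4-1BB, which activated T cells carry, was the higher one, at 272 ± 45.9 against 217 ± 33.6 CPM and in 6 of 6 libraries (0.28, edgeR adjusted p = 0.014). Without exercise 5 its edgeR adjusted p was 0.12 and without sedentary 2 it was 0.063, by DESeq2 it was 0.10, and at 3000 to 15000 UMIs it had 0.04 (edgeR adjusted p = 0.84). Of 18 T cell receptor signalling genes 11 were lower (median -0.30) and 4 at 3000 to 15000 UMIs, with the kinase Lck at -0.49. Of 13 homing and residency genes 11 were lower (median -0.75), with the chemokine receptor genes Cxcr6 at 317 ± 53.7 against 590 ± 119 CPM (-0.96) and Ccr2 at -1.65, and 5 of 11 were lower at 3000 to 15000 UMIs. Effector transcription factors split into 7 lower and 2 higher of 16, and 2 lower and 1 higher of 14 at 3000 to 15000 UMIs, with Runx3, which fixes the CD8 fate, at -0.32 in the restricted cells. Of 11 cell death and survival genes 2 were lower and 1 higher, with the death ligand gene Fasl at -0.71, and at -0.26 in cells of 3000 to 15000 UMIs (edgeR adjusted p = 0.34).

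Genes induced by interferon were lower in dividing cells among those that could be tested. Of 20 on the list 19 passed the filter on low counts in the restricted cells, and all 19 were lower in dividing cells (median -0.999), 16 of 20 with all cells (median -0.89), and 12 of 16 at 3000 to 15000 UMIs (median -0.67). Genes low in dividing cells, such as Rsad2, could reach the filter through non-dividing cells, where they were higher. The counts therefore describe the genes tested only, and Rsad2 was not among the 16. Ifi203, of the DNA-sensing family, had 253, 246 and 254 CPM in dividing exercise cells and 243, 255 and 247 CPM in dividing sedentary cells, against 404, 507, 433, 383, 438 and 296 CPM in non-dividing cells. Its dividing values hardly varied between libraries and lay below all non-dividing ones (log2 -0.76, SE 0.08, edgeR adjusted p = 6.9e-10). Zbp1, a sensor of nucleic acids, had 85.8 ± 22.6 against 148 ± 22.01 CPM (-0.84), and Rsad2, an antiviral enzyme, 15.1 ± 12.1 against 78.1 ± 65.1 CPM (-2.47).

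In cells of 5000 to 30000 UMIs with the tumour-like genes left in, several of these lists turned. Few non-dividing cells were that deep, from 5 in sedentary 3 and 6 in exercise 6 to 28 in sedentary 1. Over all genes tested there, 286 of 3726 were higher and 467 lower (median -0.02). T cell receptor signalling had 7 higher and 0 lower of 17 (median 0.58), cytotoxic genes 5 higher and 0 lower of 16 (median 0.41), and inhibitory receptors 1 higher and 0 lower of 7 (median 0.52). In that range cells with Cd4 or tumour-like genes held 34.4% to 100% of the UMIs of non-dividing cells by library and 16.6% to 57.6% of those of dividing cells. Interferon genes (0 higher and 5 lower of 17) and naive and memory genes (0 higher and 3 lower of 6) kept their direction there.

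Cells were counted in place of UMIs for 8 genes or groups. Every cell was thinned to 3000 UMIs, which left 640 dividing and 402 non-dividing cells and left out 106 and 910. Il7r was seen in 8.57%, 10.6% and 7.94% of dividing exercise cells and 6.80%, 24.2% and 9.76% of dividing sedentary cells, against 22.1%, 14.3%, 10.7%, 18.1%, 34.3% and 23.3% of non-dividing cells. It was lower in dividing cells of 6 of 6 libraries, 11.3 ± 6.45% against 20.5 ± 8.28% (exact sign-flip permutation test, p = 0.031, the smallest possible; 0.25 adjusted over 8 genes or groups), and it was seen in 0.0377% of tumour-like cells. Pdcd1 was seen in 40.8 ± 7.49% against 41.3 ± 4.83%, Gzmb in 50.1 ± 4.67% against 56.0 ± 6.88% and Havcr2 in 24.9 ± 2.39% against 28.5 ± 6.93% of cells. None of these 3 differed beyond the spread (exact sign-flip permutation p of 0.78125, 0.25 and 0.375). Among restricted cells Il7r was seen in 14.0% against 20.5% (exact sign-flip permutation test, p = 0.031), Pdcd1 in 48.2% against 46.8%, Gzmb in 60.03% against 60.7% and Havcr2 in 30.4% against 31.7%. Tcf7, at 2.52 ± 1.3% against 5.17 ± 3.76%, was near its level in tumour-like cells, 4.43%. Pdcd1 and Gzmb were seen in 0.0314% and 0.182% of tumour-like cells. Why Tcf7 stood higher there was not tested, so its shares are not read as T cell expression at this depth. Among restricted cells it was seen in 1.74% against 4.96% (exact sign-flip permutation test, p = 0.0625). With all cells at 1500 UMIs the Tcf7 difference was -3.57 percentage points (exact sign-flip permutation test, unadjusted p = 0.031).

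Exercise against sedentary dividing cells gave few differences. With all members 0 of 8183 genes passed (0.0%; edgeR's quasi-likelihood test with Benjamini-Hochberg adjustment), 183 had an unadjusted p under 0.05, and DESeq2 called 1, Lyz2. In the restricted cells 4 of 6198 passed (0.0645%), 1 higher (0.0161%) and 3 lower (0.0484%) with exercise, and 232 had an unadjusted p under 0.05. They were Lyz2, Gzmd, Gzme and Serpinb9b. In counts simulated from the sums of all members, the test found 64 of 100 genes changed by log2 1 and 100 of 100 changed by log2 2. It also made 6 false calls. Changes were placed only in genes above a floor of mean counts. Smaller changes could be missed, and changes in genes of few counts and in the smaller restricted sums were not simulated.

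The genes lower with exercise were a pair of granzyme genes and a protease inhibitor, seen in few cells. Gzmd had 0, 27.3 and 20.6 CPM in exercise 5, 6 and 8 against 180, 335 and 19.3 CPM in sedentary 1, 2 and 3, and the groups overlapped at sedentary 3 (log2 -3.95, SE 0.61, edgeR adjusted p = 0.0089). Its UMIs came from 0 of 166, 2 of 93 and 3 of 134 cells in exercise and 5 of 96, 13 of 92 and 2 of 43 cells in sedentary libraries, and in sedentary 1 a single cell held 112 of 121. Gzme had 0, 25.2 and 16.5 CPM against 96.9, 231 and 33.9 CPM, with no overlap (log2 -3.58, SE 0.58, edgeR adjusted p = 0.011). It was seen in 0 of 166, 3 of 93 and 5 of 134 exercise cells and 8 of 96, 11 of 92 and 2 of 43 sedentary cells. Sedentary 3 held 7 Gzme UMIs in all, and a single cell held 46 of 65 in sedentary 1, so the gap rests on few cells. Serpinb9b, an inhibitor of serine proteases, had 1.92, 8.41 and 6.86 CPM against 20.9, 68.1 and 29.0 CPM (log2 -2.99, SE 0.54, edgeR adjusted p = 0.032). These were 2, 4 and 5 UMIs in exercise and 14, 38 and 6 in sedentary libraries. Serpinb9b reached the filter on low counts only through the sedentary libraries, where it was higher, so its call is not separate from that selection. Sedentary 2 was highest for all 3 genes. Without it the edgeR adjusted p was 0.24 for Gzmd, 0.40 for Gzme and 1.0 for Serpinb9b, which also lost the call without exercise 5 (0.33). By DESeq2 Serpinb9b and Lyz2 were called in the restricted cells, and Gzmd and Gzme were not. At 3000 to 15000 UMIs edgeR called Lyz2 alone (1.95, edgeR adjusted p = 0.031).

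The neighbouring granzymes had the same sign without passing. Gzmc had 15.4, 162 and 114 CPM in exercise against 292, 531 and 131 CPM in sedentary libraries (log2 -1.96, edgeR adjusted p = 0.35), Gzmf 5.77, 75.6 and 129 against 256, 776 and 58.0 CPM (-2.59, edgeR adjusted p = 0.35) and Gzmb 519, 582 and 504 against 684, 1336 and 542 CPM (-0.72, edgeR adjusted p = 1). As a share of cells thinned to 3000 UMIs, Gzmc, Gzmd, Gzme or Gzmf was seen in 4.0%, 9.62% and 14.3% of dividing exercise cells against 22.3%, 30.8% and 19.5% of dividing sedentary cells. All exercise libraries lay below all sedentary ones, 9.30 ± 5.15% against 24.2 ± 5.86% (exact permutation test, p = 0.1, the smallest possible; 0.8 adjusted over 8). Non-dividing cells had 3.16%, 10.7% and 5.36% in exercise against 22.3%, 10.1% and 13.3% in sedentary libraries, which overlapped (exact permutation test, p = 0.2), and tumour-like cells 0.276%.

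Lyz2, the lysozyme gene of myeloid cells, was higher with exercise. It had 81.7, 82.0 and 67.2 CPM in exercise against 16.4, 26.9 and 9.67 CPM in sedentary libraries (log2 1.97, SE 0.29, edgeR adjusted p = 0.0082), with no overlap. A single cell held 53 of 85, 32 of 39 and 33 of 49 Lyz2 UMIs in exercise 5, 6 and 8, while no sedentary cell held more than 5. The 11 macrophage and monocyte markers, with C1qa, C1qb and C1qc at 0 by the gate, summed to 87.8 to 116.3 CPM in exercise and 29.0 to 75.3 CPM in sedentary restricted members. The 8 dendritic cell markers summed to 130.3 to 366.1 CPM in exercise and 29.0 to 158.0 CPM in sedentary members. Their part in the Lyz2 result was not tested. The MHC class II genes H2-Eb1 (1.76, edgeR adjusted p = 0.23) and H2-Aa (1.74, edgeR adjusted p = 0.35) and Tyrobp, an adaptor of myeloid and NK cells (1.04, edgeR adjusted p = 1), had the same sign and did not pass.

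**Figure D5:**
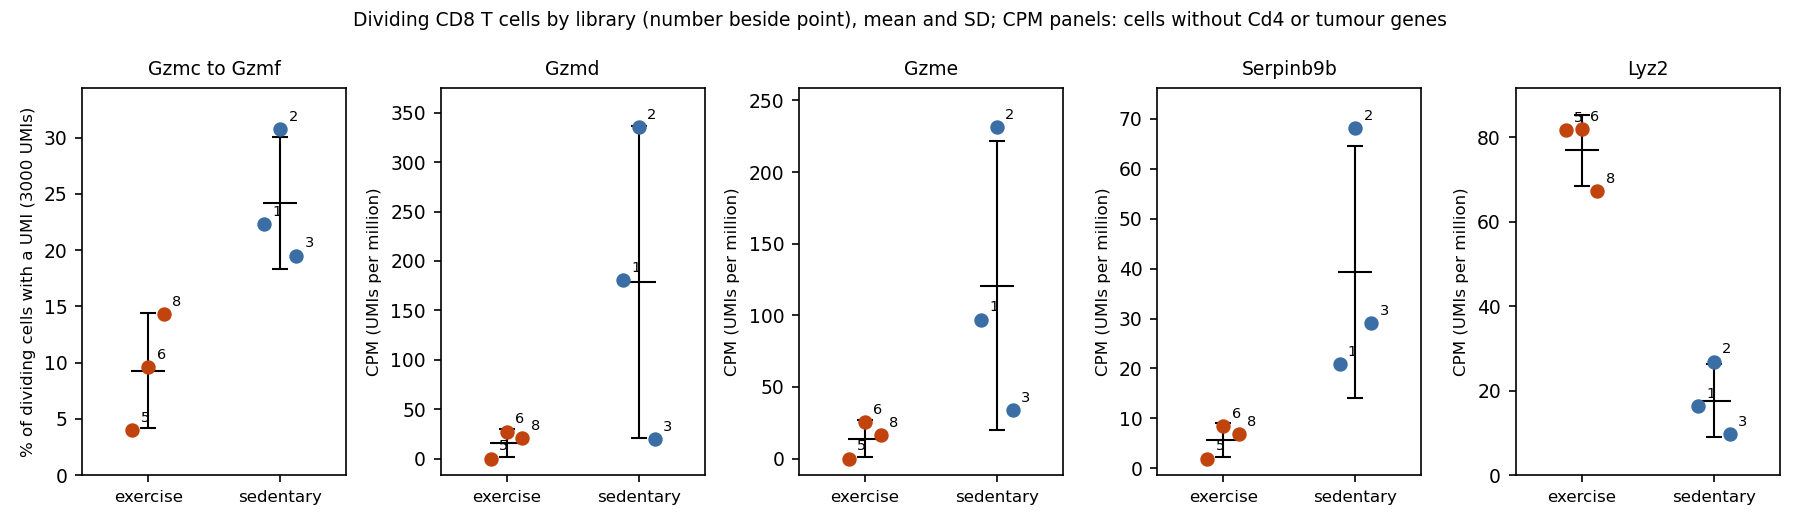
The first panel plots the percentage of dividing cells with a UMI of Gzmc, Gzmd, Gzme or Gzmf at 3000 UMIs per cell, and the others the CPM of 4 genes in restricted members, by library (number beside the point) with mean and SD for exercise (left) and sedentary (right) tumours. Sedentary 2 is the highest point of the 3 granzyme panels and of Serpinb9b, and the 3 exercise values of Lyz2, 67.2 to 82.0 CPM, stand above the sedentary ones.

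Few genes of the T cell lists passed between exercise and sedentary tumours. Of 27 panel genes of killing, exhaustion and memory, 22 could be tested in the restricted members and 0 passed, with log2 fold changes from -2.59 (Gzmf) to 0.85 (Gzmk) and 5 at an unadjusted p under 0.05. Pdcd1 had 220 ± 39.0 CPM in exercise and 191 ± 27.6 CPM in sedentary members (log2 0.19, edgeR adjusted p = 1), Ifng 160 ± 64.9 and 158 ± 28.5 CPM (-0.02), Prf1 326 ± 108 and 375 ± 168 CPM (-0.32), Havcr2 132 ± 15.8 and 151 ± 46.0 CPM (-0.24), and Il7r 40.4 ± 6.75 and 60.3 ± 42.6 CPM (-0.64). In all members Tcf7 had -0.44 and Klf2 0.02. Of the 22 cytotoxic and effector genes 2 were called lower, Gzmd and Gzme, and 20 had a negative log2 fold change (median -0.32). Over all genes tested the median was 0.0034, and 3131 of 6198 were positive. Of the other lists outside the cell cycle none held a called gene, and their medians lay between -0.11 for cell death and survival and 0.16 for homing and residency.

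The response of dividing cells was not shown to differ from that of non-dividing ones. In non-dividing cells 1 of 6344 genes passed between exercise and sedentary tumours (0.0158%), Dcn, a matrix gene of fibroblasts, at -1.96 (edgeR adjusted p = 0.021), and 0 of 5447 in the restricted cells. Tumour-like cells also carried Dcn, with 237.5 CPM and a UMI in 61.7% of them. The difference of the exercise effect between both states, tested as an interaction with the library as a block, gave 0 of 8591 genes (0.0%; 204 at an unadjusted p under 0.05, 1 by DESeq2) and 0 of 6800 in the restricted cells. Ptn, one of the tumour-like genes, had the smallest p (4.07, edgeR adjusted p = 0.10), followed by Gadd45a (2.72) and Lyz2 (2.17). In counts simulated from the sums of all cells, with changes above the same floor, this test found 16 of 99 genes changed by log2 1. It found 89 of 99 changed by log2 2 and made 4 false calls.

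The T cell receptor beta variable genes (Trbv) were more alike among dividing cells. Each T cell clone uses 1 Trbv gene, and 3' counts catch it in few cells, so cells with UMIs of exactly 1 Trbv gene were used. These were 42, 13 and 31 dividing cells in exercise 5, 6 and 8 and 15, 15 and 15 in sedentary 1, 2 and 3, against 40, 12, 18, 25, 32 and 15 non-dividing cells. The chance that 2 cells of a library share their gene was 14.5%, 19.2% and 32.9% in dividing exercise cells and 22.9%, 16.2% and 43.8% in dividing sedentary cells, against 13.1%, 15.2%, 14.4%, 13.7%, 11.3% and 25.7% in non-dividing cells. It was higher in dividing cells of 6 of 6 libraries, 24.9 ± 11.3% against 15.5 ± 5.15% (exact sign-flip permutation test, p = 0.031, the smallest possible). This used all libraries with at least 10 such cells in each state. With a minimum of 20, 1 library was left and no test could be made. In the restricted cells the difference was 8.53 percentage points, again in 6 of 6 libraries (exact sign-flip permutation test, p = 0.031).

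The most frequent Trbv gene was not the same in every library. Trbv19 was the most frequent in dividing cells of exercise 8 (17 of 31), sedentary 1 (7 of 15) and sedentary 2 (6 of 15), Trbv2 in exercise 5 (10 of 42) and sedentary 3 (9 of 15), and Trbv13-1 in exercise 6 (5 of 13). In non-dividing cells Trbv19 was found in 6 of 18, 6 of 25 and 10 of 32 cells of exercise 8, sedentary 1 and sedentary 2. The exact 95% interval of the 17 of 31 cells ran from 36.0% to 72.7% and that of the 6 of 18 from 13.3% to 59.0%, which overlap. A shared Trbv gene is not a shared clone, since the joining region that tells clones apart was not read.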

How the data were processed

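The authors deposited unnormalised counts of UMIs for every gene in every cell barcode, from a 10x Genomics 3' library per sample. The submitters' processing notes name Cell Ranger 6.1.2 and the build mm10, and version 3.1.0 of the software stands in the headers of the matrices, per the file headers. A barcode was kept with 300 genes or more, 500 UMIs or more and no more than 20% of UMIs from mitochondrial genes. Scrublet (scanpy 1.11.5) marked doublets, which stayed in unless stated. UMIs were summed per library and state and tested with edgeR 4.0.16 (TMM scaling, its filter on low counts, quasi-likelihood test, adjusted p under 0.05), with DESeq2 1.42.0 as an alternative. Single values were tested by exact permutation (scipy 1.17.1). The tests were checked on simulated counts. Members, gene lists and tests were chosen with earlier results of these data known. Genes named were a panel of 27, the 6 of smallest p in each direction of a contrast, the 10 of largest change in each direction between states, and up to 4 of smallest p per list; Gzmd, Gzme, Serpinb9b and Lyz2 are also the genes called in the restricted cells. A few results are not reported here.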

Additional observations from a re-analysis of the deposited data

How the results depend on the processing

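The counts that most depended on the processing were the small ones. Between exercise and sedentary dividing cells, 40 genes passed without the filter on low counts, 1 with DESeq2, 4 without cells with Cd4 or tumour genes (2 of these with DESeq2 too), 1 of those up to 15000 UMIs and 1 at 3000 to 15000 UMIs. Without each library in turn 0 to 4 passed in all cells and 1 to 10 in restricted cells. In non-dividing cells 3 passed with DESeq2, 0 without cells with Cd4 or tumour genes and 0 to 5 without each library. The interaction gave 11 without the filter, 1 with DESeq2 and 0 to 2 without each library. Between states 1577 passed with DESeq2, 753 at 5000 to 30000 UMIs, 878 at 3000 to 15000 UMIs, 1107 in the restricted cells with DESeq2, and, without each library, 1548 to 2746 in all cells and 1481 to 2017 in restricted cells. No paired analysis was possible between exercise and sedentary tumours because the groups share no replicate numbers; between states the library was the replicate block, and without the replicate block 2398 genes passed and Gzmc had 0.080. The dividing share of CD8 cells minus regulatory T cells was 3.07 unthinned and -2.09 to 1.35 without each library, and minus NK cells 15.4 to 20.6, where 5 libraries cannot give a p under 0.0625. Shares of cells with a UMI, dividing minus non-dividing, changed sign without thinning for Tcf7 (0.026), Havcr2 (17.2), Pdcd1 (18.5) and Gzmb (21.2), and Gzmc to Gzmf (9.37) then passed; at 1500 UMIs Tcf7 had -3.57. Pdcd1 had 1.37 in restricted cells and -2.36 to 0.80 without each library, and Il7r -10.5 to -8.30. The sharing of Trbv genes was 9.37 at 10 cells, 8.53 in restricted cells and 7.54 to 10.96 without each library. Of 2706 alternatives over 137 gene results, 2382 kept direction and call, 142 lost and 70 gained a call, and 112 changed sign; the cause was not tested. At 5000 to 30000 UMIs between states these log2 fold changes had the other sign: Bcl2a1b 0.51, Bcl2l11 0.14, Bhlhe40 0.44, Cd160 0.30, Cd28 0.41, Gzmb 0.66, Gzmc 1.48, Havcr2 0.56, Id2 0.40, Jun -0.85, Klrd1 0.12, Lag3 0.10, Lck 0.54, Nkg7 0.45, Pdcd1 0.52, Pkm -0.43, Prf1 0.69, Runx3 0.45, Selplg 0.30, Slc2a3 0.18, Tnfrsf18 0.49, Tnfrsf9 0.51, Tox 0.77 and Trbc2 0.43. In restricted cells (then with DESeq2, up to 15000 and 3000 to 15000 UMIs) Gzma had 0.31, 0.58, 0.42 and 0.92, Gzmb 0.12, 0.088 and 0.091, Gzmc 0.71, 0.40, 0.51 and 0.80, Jun -0.16, -0.20, -0.19 and -0.20, Tnfrsf9 0.28, 0.29, 0.32 and 0.042, Myc 0.16, 0.10 and 0.068, Gzmf 0.039 and at 3000 to 15000 UMIs 0.25, where Havcr2 had 0.058, and Tox 0.00052 up to 15000 UMIs. Gzma had 0.015 with DESeq2, Gzmc 0.040 at 4 proliferation UMIs and 0.051 without doublets, Myc 0.053 without the filter and 0.033 without doublets. With exercise, Havcr2 had 0.053 without doublets, and Pdcd1 -0.042 at 5000 to 30000 UMIs and -0.015 at 1 proliferation UMI. Without each library, in all cells and then in restricted cells, these ranges were, with exercise, for Havcr2 -0.13 to 0.067 and -0.41 to 0.061, Il7r -0.78 to 0.11 and -1.07 to 0.22, Kcnn4 0.70 to 0.98 and -0.092 to 0.84 and Pdcd1 -0.093 to 0.51 and 0.038 to 0.35. Between states they were for Gzma -0.53 to 0.29 and 0.047 to 0.67, Gzmb -0.64 to -0.41 and -0.015 to 0.27, Gzmc -0.43 to 0.11 and 0.22 to 0.99, Gzmf -1.18 to -0.59 and -0.65 to 0.26, Il2ra -0.93 to -0.45 and -0.45 to 0.23, Jun 0.72 to 1.09 and -0.30 to -0.074, Myc -0.13 to 0.068 and -0.021 to 0.25, Prf1 -0.72 to -0.53 and -0.16 to 0.090, Tnfrsf9 -0.39 to -0.12 and 0.22 to 0.34 and Tox -0.68 to -0.36 and -0.16 to 0.064, so that for Gzmb, Gzmf, Il2ra, Jun, Prf1, Tnfrsf9 and Tox leaving out a library changed no sign in all cells. Leaving out libraries for the shares of cells with a UMI, for Trbv sharing and for restricted cells, and the further settings of restricted cells, were chosen after seeing the data. Depth limits genes under about 20 CPM, and 43 to 166 restricted members per library leave single cells weight in rare transcripts. At 5000 to 30000 UMIs the non-dividing sums held only 5 to 28 cells per library.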
